A study of Homo sapiens with 24 samples.

Results

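Messenger RNA that is copied while cells take up the uridine analogue 4-thiouridine (s4U) carries the analogue, and after alkylation its reads show T-to-C changes. A read with such a change is called labelled here, and the labelled share of a gene is the labelled reads divided by all of its reads. In a chase with plain uridine the labelled share falls for 2 reasons that the share alone does not separate: labelled RNA is lost, and unlabelled RNA is newly made. The genes described here were selected on their measured labelled shares in control at 0 h and 6 h, as those that kept the highest share after 6 h of chase. For this, reads of the 3 control libraries were summed at each time, entries naming 1 gene were kept if they had at least 200 reads at 0 h and at 6 h and a 0 h share of at least 80%, and the 150 with the highest 6 h share were taken. Removing 7 ribosomal protein genes, cytosolic and mitochondrial (RPS29, RPL41, RPL23, RPL32, MRPS21, RPL13A and MRPL51), left 143 genes out of 2760 that met the minimums, in tables of 19692 entries of which 19242 name 1 gene.

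The cells were HEK293, an established line from human embryonic kidney, in a version carrying a Flag/HA control construct (control) and a version overexpressing ZC3H7B (ZC3H7B-OE), a CCCH zinc finger protein that binds RNA. Both versions received 100 µM s4U together with 1 µg/mL doxycycline for 24 h and then 10 mM uridine, so the controls carry the drug and the label too, with harvests after 0, 2, 4 and 6 h and 3 libraries for each line and time. The labels say neither whether a line is 1 clone nor what drives either construct. Whether the 3 libraries of a group are separate cultures is not stated, so a p-value measures only how far these libraries spread, which may be technical.

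The 24 libraries held between 1502068 and 3676254 reads in the tables, of which between 29% and 78.0% were labelled. Control 0 h replicate 3 stood apart, with the lowest TMM scaling factor, 0.726, where the highest of all libraries was 1.08. ZC3H7B itself was at 410 to 463 CPM (counts scaled to a fixed library size, with TMM factors) in ZC3H7B-OE and 192 to 358 in control at 0 h. Its levels did not overlap between the lines at 0, 4 or 6 h, and overlapped at 2 h (290 to 357 against 283 to 376). Of 8 marker genes listed for HEK293, 7 are in the tables and 5 had at least 100 reads over all libraries, with IGF2BP1 and LIN28B the highest. The others of these were low: KRT8, KRT18 and VIM reached at most 28.4, 18.3 and 9.70 CPM. PAX2 had 13 reads and NEFM 2. Of the 5 leukocyte markers, PTPRC and CD3E had no read, CD79A had 184 reads and FCER1G 269 over all libraries, and CD68 reached 271 CPM. Of the 4 markers of mature kidney tubule, UMOD and SLC12A1 had no read, LRP2 had 117 and AQP2 120. Each fibroblast marker had at most 67 reads. In bulk RNA, fewer cells of a type and less RNA per cell cannot be told apart.

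How long a messenger lasts depends on its codons, its 3′ untranslated region (UTR) and the proteins bound to it, and messengers for secretory, metabolic and structural proteins are commonly long-lived while those of stress and signalling regulators turn over fast. G or C at the third position of codons (GC3) is a summary of codon choice, as most amino acids have synonymous codons that differ there. The coding sequences of the 143 genes leaned towards G and C at this position. Of them, 142 matched a protein-coding transcript of GENCODE v29 (GRCh38) by gene identifier, the exception being RASL10B. Their median GC3 was 67.8% (quartiles 57.3% and 76.4%), against 54.5% (quartiles 42.6% and 68.5%) in the 2574 matched genes that met the minimums and were not taken. The 10 codons from the middle of the coding sequence are shown for the lowest and highest pairs of members, the third positions in capitals, to make the range visible. RWDD1 (GC3 34.7%) and NSA2 (35.5%) are the low pair, and SLC7A5 (90.3%) and MARVELD1 (95.3%) the high pair, chosen for base composition after the values were seen.
RWDD1: caGatAaaAacTagAagAgaAgaAgaAaaG
NSA2: gcCcaGggAgaAacAgaAgtAttAaaAgtT
SLC7A5: agCggCctCttTgcCtaTggAggAtgGaaT
MARVELD1: ggCaaGcaCgaGctGgtCccCgtGctGggC
In these stretches 2, 2, 5 and 10 of the 10 capitals are G or C, so the window of SLC7A5 lies below the mean of its own gene.

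The 3′ UTRs of the members were shorter than those of the genes not taken, with a median of 1199 nt against 1835 nt, and had less U (26.8% against 31.0%) and more GC (49.6% against 40.9%). The pentamer AUUUA, the core of AU-rich elements, was searched on the transcript strand of the 3′ UTR alone. It was absent from 47 of the 142 members (33.1%) and from 15.0% of the 2559 genes not taken that have a 3′ UTR in the annotation. Shorter 3′ UTRs with less U leave fewer places for a match, and their part in this count was not tested. Per kb of 3′ UTR the median number of matches was 0.91 in the members and 1.98 in the genes not taken. Coding sequences were also shorter, with a median of 920 nt against 1208 nt. A match is a description of these letters and no measured site. Because labelled reads are recognised by T-to-C changes, the U content of a transcript bears on how often a labelled molecule gives a labelled read, and its part in the share was not tested.

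**Figure D1:**
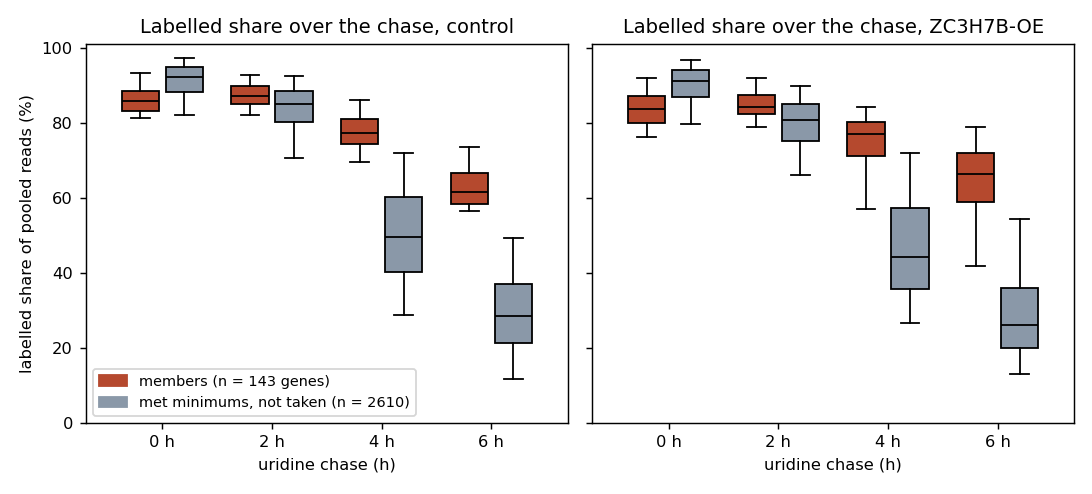
Labelled share of pooled reads (%) against hours of uridine chase in control (left) and ZC3H7B-OE (right), for the 143 members and the 2610 genes that met the minimums and were not taken; boxes span the quartiles, lines are medians and whiskers reach the 5th and 95th percentiles. The control values at 0 h and 6 h chose the members; at 4 h the members' medians were 77.3% and 76.9% in the 2 lines, and those of the other genes 49.5% and 44.2%.

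The share of the members stayed nearly level for 2 h and then fell slowly. In control the median over members at the successive harvests was 85.8%, 87.2%, 77.3% and 61.6%, of which the first and the last are what the rule used and are a description only. Among the genes not taken it was 92.3%, 84.9%, 49.5% and 28.5%. In ZC3H7B-OE, whose libraries took no part in the choice, the members' medians were 83.7%, 84.3%, 76.9% and 66.2%, and those of the genes not taken 91.1%, 80.7%, 44.2% and 26%. All 143 members were above the median of the 2760 genes in both lines at 4 h, and in the 6 h libraries of ZC3H7B-OE. Among the 150 genes with the highest share at 4 h in control, 97 were members (67.8% of the members, where 5.43% of all genes are taken). In ZC3H7B-OE the same count was 83 for the 4 h libraries and 100 for the 6 h libraries. The members were thus also high in libraries that did not choose them.

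At 0 h the order was the reverse. Only 11 of the 143 members were above the median share of the 2760 genes in control at 0 h, and 11 in ZC3H7B-OE. From 0 h to 2 h the pooled share went up in 95 of 143 members in control (66.4%) and in 93 in ZC3H7B-OE (65%). Among the genes not taken it went up in 11.6% and 9.12%. The 0 h values of control belong to the rule and carry no test.

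Pooled over all 143 genes, the labelled share per library at 6 h was 61.0% ± 1.03 (SD, n = 3) in control and 64.0% ± 1.16 in ZC3H7B-OE, while the libraries as a whole held 29.9% ± 0.73 and 29.6% ± 0.66 labelled reads. The members made up 4.71% ± 0.14 of control reads at 0 h and 2.15% ± 0.056 at 6 h. For ZC3H7B-OE the figures were 5.12% ± 0.047 at 0 h and 2.27% ± 0.094 at 6 h. Their part of the libraries therefore shrank by more than the spread between libraries in both lines.

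The working name of these genes, slowest label turnover, holds for the share and not for the labelled reads. In ZC3H7B-OE the labelled reads of 142 of 143 members fell from 0 h to 6 h (edgeR quasi-likelihood F test, Benjamini-Hochberg adjusted p under 0.05), where 64.4% of the 10038 tested entries fell. The median log2 change of labelled reads was -1.59 in the members and -1.42 in the genes that met the minimums and were not taken. Relative to the library, the median fall of labelled reads was thus no smaller in the members than in the other genes. PRELID1, a mitochondrial carrier of phosphatidic acid, was the exception: its labelled level was 107 ± 5.78 CPM at 0 h and 107 ± 5.13 CPM at 6 h. The comparisons of labelled and of unlabelled reads were added after the data had been seen.

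What set the members apart was the unlabelled side. Unlabelled reads rose in 28 members and fell in 39, where 62.6% and 8.81% of the tested entries did. Their median log2 change was -0.16 in the members and 3.47 in the genes not taken. The starting levels differed: the median unlabelled level in ZC3H7B-OE was 24.6 CPM at 0 h and 21.8 CPM at 6 h in the members. In the genes not taken it was 8.59 and 106 CPM. All reads fell in 136 of 143 members and rose in 0, where 30.6% of the tested entries fell and 32.8% rose; 137 members were under an unadjusted p of 0.05, and DESeq2's Wald test gave 136 and 0. The median log2 change of all reads in ZC3H7B-OE was -1.23 in the members and 0.34 in the genes not taken. In control, where the same libraries served the rule, the medians were -1.24 for all reads, -1.73 for labelled and 0.14 for unlabelled reads of the members. Labelled odds, the ratio of labelled to unlabelled reads, fell from 0 h to 6 h in 121 of 143 members in ZC3H7B-OE (84.6%). Of the tested entries 77.2% fell, and of the 2610 genes not taken 100% fell. The median log2 change of the odds was -1.34 in the members and -4.89 in the genes not taken. Scaled to the labelled share of the whole library, which fell too, the odds fell in 1 member and the members' median was 1.47. The 7 members whose all reads did not pass were DMWD, CNTNAP2, PRUNE2, PRELID1, SYNJ2BP, POC1B and SRI.

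**Figure D2:**
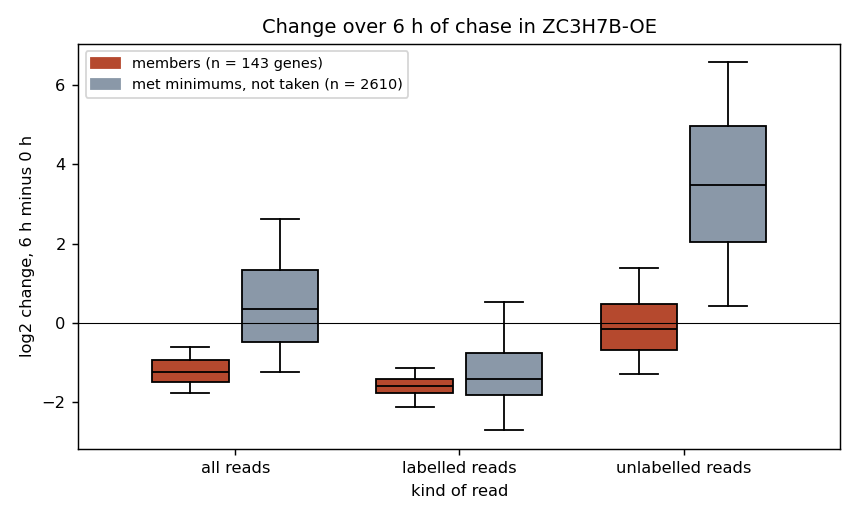
Fitted log2 change from 0 h to 6 h of chase in ZC3H7B-OE (6 libraries in the contrast) of all, labelled and unlabelled reads per gene, for the 143 members and the 2610 genes not taken; boxes span the quartiles, whiskers the 5th to 95th percentiles. Labelled reads fell in both sets (medians -1.59 and -1.42), while the median of unlabelled reads was -0.16 in the members and 3.47 in the other genes.

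The largest fall of all reads was that of C19orf48, a small open reading frame gene. Its 3 ZC3H7B-OE libraries held 343, 370 and 377 CPM at 0 h and 66.6, 60.4 and 60.3 CPM at 6 h. The groups did not overlap, and the log2 change was -2.54 (SE 0.15, edgeR adjusted p = 5.3e-16). Labelled and unlabelled reads fell together, from 312 ± 17.5 to 46.6 ± 3.34 CPM and from 51.2 ± 4.07 to 15.8 ± 3.21 CPM (SD, n = 3). The next members were RWDD2B (-2.02, SE 0.24), TOMM40L, a mitochondrial outer membrane protein of the TOM40 family (-1.98, SE 0.20), SPC24, a subunit of the NDC80 kinetochore complex (-1.95, SE 0.16), CYB5R1, a cytochrome b5 reductase (-1.94, SE 0.26), DFFA, the inhibitor of the apoptotic DNase (-1.91, SE 0.11), GSTM3, a glutathione transferase (-1.91, SE 0.19), and TMEM101 (-1.85, SE 0.16). DFFA shows the usual pattern of the list: its labelled reads went from 666 ± 34.2 to 127 ± 8.77 CPM, and its unlabelled reads were 79.5 ± 15.3 and 71.0 ± 1.40 CPM. SYNJ2BP, a mitochondrial outer membrane protein with a PDZ domain, shows the opposite. Its all reads were 45.0, 44.4 and 49.7 CPM at 0 h and 41.9, 40.6 and 31.0 CPM at 6 h, as labelled reads went from 44.2 ± 2.94 to 11.9 ± 4.20 CPM and unlabelled reads from 2.13 ± 0.87 to 26 ± 4.08 CPM.

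At the top of the list by control 6 h share stood CYB5R1, with 78.8%, 85.5% and 73.3% in the 3 control libraries. WDR45, which acts in autophagosome formation, had 73.2%, 80.8% and 81.7%, and RING1, a ubiquitin ligase of Polycomb complex 1, had 78.1%, 73.2% and 78.1%. SLC37A4, the glucose-6-phosphate carrier of the endoplasmic reticulum, had 77.3%, 75.4% and 77.0%. These libraries of different members overlap, so their order is not resolved. The next 8 by pooled share were PGAP3 (75.3%), which remodels glycosylphosphatidylinositol anchors, TOMM40L (75%), ACTR1B (74.8%), an actin-related subunit of dynactin, POP5 (74.1%), a subunit of RNase P and RNase MRP, RWDD2B (73.5%), DESI1 (73.1%), a SUMO protease, PEX19 (71.9%), the import receptor for peroxisomal membrane proteins, and OXA1L (70.9%), an insertase of the inner mitochondrial membrane. In ZC3H7B-OE at 6 h the same 12 genes were between 64.7% (PEX19) and 84.7% (DESI1). Just inside the limit were SLC7A5 (56.1%), ANXA11 (56.0%) and EFTUD2 (55.7%), and just outside APH1A (55.6%), HIGD2A (55.4%) and NRM (55.4%).

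The order rests on few reads for many members. The median member had 527 pooled control reads at 6 h, the lowest 200 and the highest 20787 (HMGN2), and 56 of 143 had fewer than 400. Leaving out 1 of the 6 control libraries of 0 h and 6 h kept between 100 (without control 6 h replicate 3) and 130 of the 143 genes. A minimum of 400 reads kept 85, a minimum 0 h share of 85% kept 86, and no minimum 0 h share kept 81, while the mean of the 3 library shares in place of the pooled share kept 138.

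By function, 89 of the 143 genes fell into 12 groups put together by hand after the members were known, and 54 into none. The largest held 20 genes of the endoplasmic reticulum, Golgi and vesicle traffic. Their median 6 h share was 61.5% in control and 66.4% in ZC3H7B-OE. Higher or lower counts of a group at 6 h are a description, since the control values belong to the rule, and 63.6% of all members were higher in ZC3H7B-OE. TEX261, a membrane protein of the early secretory pathway, started at 82.8% in ZC3H7B-OE and ended the chase at 61.8%. TMED9, a cargo receptor of the p24 family, went from 78.5% to 67.1%, and COLGALT1, which adds galactose to collagen, from 81.1% to 64.1%. Of the pathway lists used for the whole table, the one for translocation, glycosylation and folding in the endoplasmic reticulum had 23 genes that met the minimums, of which 4 are members (PDIA6, SPCS1, TMED9 and TMED4). That is 17.4%, where 5.18% of all genes that met the minimums are members. The list for Golgi and vesicle coats had 1 member (ARF3) of 36 such genes, or 2.78%. The list for lysosome and V-ATPase had 0 of 9.

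The 6 lysosome and autophagy genes were each higher in share in ZC3H7B-OE than in control at 6 h, with group medians of 71.6% and 60.6%. DNASE2, the acid nuclease of lysosomes, had 57.7%, 66.9% and 66.7% in control and 62.6%, 79.0% and 72.0% in ZC3H7B-OE, which overlap. CLN6, a membrane protein of the endoplasmic reticulum needed for lysosomal function, had 58.4% and 65.2% pooled, and CYB561A3, a lysosomal cytochrome b561, 58.2% and 68.4%. The 3 genes for glycosylphosphatidylinositol anchors and dolichol sugars were PGAP3, DPM2, a regulatory subunit of dolichol-phosphate mannose synthase, and PIGP. PIGP, from the first enzyme of anchor synthesis, was lower in ZC3H7B-OE at 6 h, 55.1% against 69.6%, on 156 and 237 reads. PGAP3 was lower too, at 70.1% against 75.3%, and DPM2 was higher, at 73.4% against 68.5%.

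The 8 lipid genes included AGPAT1, which makes phosphatidic acid, and PTDSS1, a phosphatidylserine synthase. AGPAT1 was at 61.4%, 59.8% and 59.5% in control at 6 h and at 67.5%, 64.9% and 70.0% in ZC3H7B-OE, so the groups did not overlap. At 6 h, ZC3H7B-OE lay above all control libraries without overlap in 39 of 143 members (27.3%) and in 19.4% of the genes not taken. SLC27A4, a fatty acid transporter, was at 69.0% and 67.4%. PTDSS1 was among the 5 lowest members in ZC3H7B-OE, at 39.7% against 57.7% in control. Of the 7 mitochondrial genes only 3 were higher in ZC3H7B-OE at 6 h, and their medians were 50% there and 63.2% in control. TXN2, the mitochondrial thioredoxin, was higher (71.2% against 64.8%), and FECH, ferrochelatase of haem synthesis, was lower (45.1% against 59.1%). C7orf73, a mitochondrial micropeptide gene, was at 50% against 57.1%.

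Among the 3 plasma or organelle membrane carriers, SLC7A5, the light chain of the large neutral amino acid transporter, was measured on 14182 control reads at 6 h. Its share was 54.2%, 56.0% and 57.6% in control and 65.6%, 66.3% and 65.7% in ZC3H7B-OE. The lines did not overlap. SLC41A3, a magnesium transporter, differed by less than the spread between libraries (64.9% and 64.8%), and SLC37A4 was at 76.7% and 74.7%. Of the 8 amino acid, nucleotide and sugar enzymes, WARS, the cytosolic tryptophanyl-tRNA synthetase, was at 56.6% and 54.2%, and ASNS, asparagine synthetase, at 58.4% and 55.6%. Both were lower in ZC3H7B-OE by less than the range of the control libraries.

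Among cell cycle genes 5 of 6 were higher in share in ZC3H7B-OE at 6 h. E2F1, a transcription factor of the G1/S transition, was at 66.6% and 71.4%, and SPC24 at 64.0% and 80.9%. CENPV, a centromere protein, was at 58.7% and 58.8%. CCNI, cyclin I, was the lower one, at 59.3% and 56.8%. Of 8 genes for RNA processing and ribosome making, NONO, a paraspeckle protein, was at 56.3% and 59.7%, and WDR77, the partner of the arginine methyltransferase PRMT5, at 56.5% and 66.2%. HNRNPC, a pre-mRNA binding protein, was at 62.4% and 56.9%. HMGN2, a nucleosome-binding protein and the member with the most reads, was at 57.1%, 57.4% and 58.6% in control and 63.5%, 65.1% and 67.7% in ZC3H7B-OE. HNRNPC and HMGN2 have near-identical copies elsewhere in the genome, and how the counting split such reads is not given, so their values are uncertain. WBP2, a transcriptional coactivator, was at 62.7% and 65.4%.

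The 3 redox enzymes were all higher in ZC3H7B-OE at 6 h: PRDX6, a peroxiredoxin, by the smallest step (60.2% and 60.7%), FAM213B at 66.3% and 70.5%, and GSTM3 at 67.9% and 76.8%. From the list of peroxiredoxins, thioredoxins and glutathione enzymes, 3 of the 13 genes that met the minimums are members. Of 9 cell surface and neural genes 6 were higher, among them TSPAN3, a tetraspanin, at 66.2% and 75%, and NPTX1, a neuronal pentraxin, at 70.6% and 75.3%. GPM6B, a proteolipid of neural membranes, was at 62.5% and 41.7%. Some lists had 0 members, among them ubiquitin conjugation (35 genes that met the minimums), proteasome (12) and respiratory complexes II to V (11). The list of short-lived immediate early, stress and p53 genes (18) had 0 too. As 5.18% of all genes that met the minimums are members, 0 in lists of this size is near that share. The ubiquitin list is not complete, since the ubiquitin ligase RING1 is a member and not on it. The short-lived list had a median 6 h share of 10.7% in control.

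The same rule applied to the ZC3H7B-OE libraries gave 143 genes out of 2511 that met the minimums, and 78 were shared, 54.5% of either list. In ZC3H7B-OE 41 of the 143 members fell short of a minimum of reads or of 0 h share. At 6 h the pooled share was higher in ZC3H7B-OE in 91 of 143 members (63.6%), with a median difference of 3.78 percentage points. Among the genes not taken it was higher in 43.1%, with a median difference of -1.07 points. The difference was within 5 points in 54 members, over 10 points higher in 24 and over 10 points lower in 19. The control values at 6 h chose the members, so no test is given at this time. The highest shares in ZC3H7B-OE were those of DESI1 (84.7%), OAF (82.3%), CYB5R1 (82.3%), TOMM40L (82.2%) and ACTR1B (82.1%). The lowest were those of SYNJ2BP (31.9%), POC1B (33.2%), a centriole protein, SRI (35.4%), the calcium-binding protein sorcin, PRUNE2 (37.4%) and PTDSS1 (39.7%). PRUNE2 had 62.6%, 61.7% and 64.4% in control and 33.8%, 41.6% and 35.6% in ZC3H7B-OE, with no overlap. ZC3H7B-OE lay below all control libraries in this way in 25 of 143 members (17.5%) and in 27.0% of the genes not taken. POC1B had 63.3%, 37.8% and 66.7% in control, so that 1 control library lay near the 33.0%, 33.3% and 33.3% of ZC3H7B-OE.

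**Figure D3:**
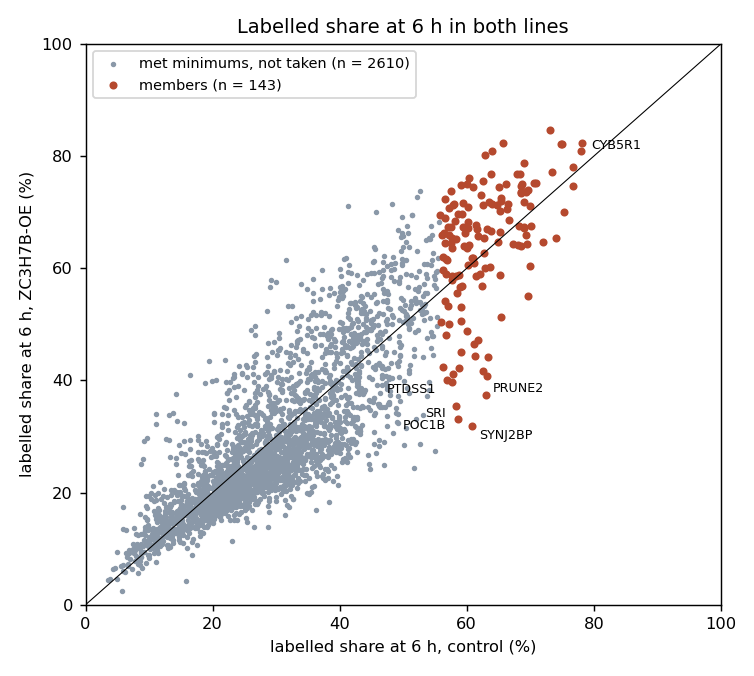
Pooled labelled share at 6 h (%) in ZC3H7B-OE against control, 1 point per gene, for the 143 members and the 2610 genes not taken; the line marks equal shares. Members lie right of 55.7% by their choice; 91 of 143 are above the line, and SYNJ2BP, POC1B, SRI, PRUNE2 and PTDSS1 are at 31.9% to 39.7% in ZC3H7B-OE.

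At 4 h, in libraries outside the rule, the labelled odds were compared between the lines. They were lower in ZC3H7B-OE in 9 of 143 members and higher in 0, where 3.17% and 0.219% of the 10038 tested entries passed; 31 members were under an unadjusted p of 0.05. The median log2 difference was -0.13 in the members and -0.20 in the genes not taken, of which 9.73% were lower. So 6.29% of the members were lower, on fewer reads than most of the genes not taken. With odds scaled to the whole library the members' median was -0.01 and 5 were lower and 1 higher. With limma on the logit of the share 1 was lower, and leaving out replicate 3 of the 4 h libraries gave 5 (control) and 4 (ZC3H7B-OE). At 2 h 10 members (6.99%) were lower and 0 higher, where 4.97% and 0.0797% of entries passed. Among the genes not taken 14.6% were lower and 0.0383% higher at 2 h. Called at both times were 3 members (HDGF, PEG10 and RWDD1). The change of the line difference from 2 h to 4 h passed in 0 members (edgeR), with 15 under an unadjusted p of 0.05, where 2 higher and 1 lower of the 10038 tested entries passed (0.0199% and 0.00996%).

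ALDH1A2, which makes retinoic acid, was the best measured of the large differences. Its share at 4 h was 70.9%, 73.1% and 74.5% in control and 57.3%, 56.8% and 57.1% in ZC3H7B-OE. The groups did not overlap, and the log2 difference in odds was -1.01 (SE 0.16, edgeR adjusted p = 2.9e-06), the only 1 of the 8 largest that passed under each alternative run. TPD52 had 82.3%, 70.3% and 83.9% against 60.0%, 56.6% and 50%, a difference of -1.61 (SE 0.40, adjusted p = 0.0064). FECH had 76.9%, 77.9% and 73.7% against 48.1%, 69.1% and 51.3%, a difference of -1.31 (SE 0.31, adjusted p = 0.0045). For both genes the lines did not overlap, but the ZC3H7B-OE libraries spread over 10 points or more. Such a lack of overlap was common: at 4 h ZC3H7B-OE lay below all control libraries in 37 of 143 members (25.9%). It did so in 33.5% of the genes not taken. RWDD1, a protein with an RWD domain, had 73.5%, 67.4% and 74.8% against 55.9%, 55.5% and 47.3% (-1.19, SE 0.27, adjusted p = 0.0023). CNTNAP2, a neuronal adhesion protein of the neurexin family, had 74.3%, 77.2% and 79.1% against 63.3%, 66.5% and 56.6% (-0.9998, SE 0.28, adjusted p = 0.018). The other 4 were smaller steps on more reads. C8orf33 went from 77.6% pooled in control to 70.4% in ZC3H7B-OE (-0.55, SE 0.14), HDGF, a growth factor that binds chromatin, from 74.9% to 69.4% (-0.41, SE 0.10), PEG10, a retrotransposon-derived imprinted gene, from 74.3% to 68.9% (-0.40, SE 0.10), and HNRNPC from 74.3% to 69.5% (-0.35, SE 0.10). TPD52, FECH, RWDD1, CNTNAP2, C8orf33, HDGF and PEG10 each lost the call in 2 to 5 of the alternatives, always with limma.

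**Figure D4:**
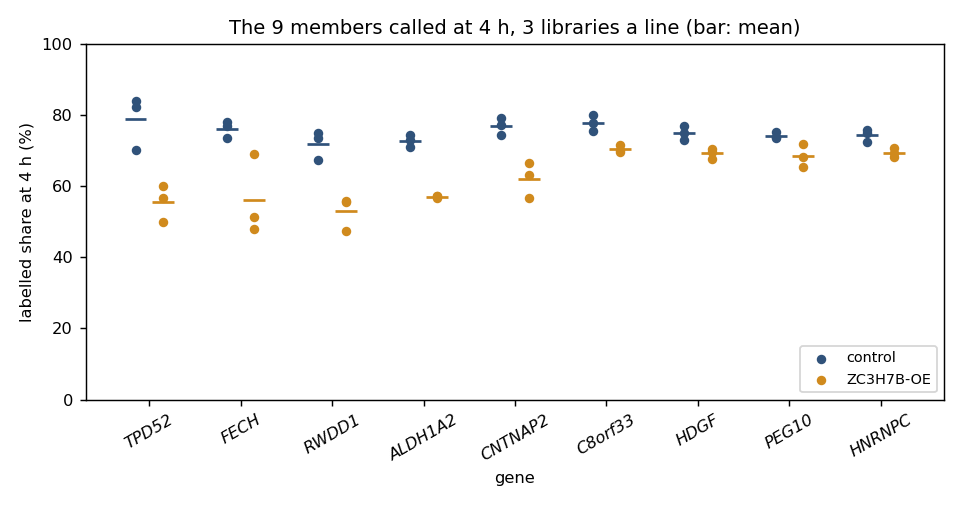
Labelled share at 4 h (%) in each of 3 control and 3 ZC3H7B-OE libraries for the 9 members whose labelled odds differed between the lines at that time; bars are means. In each gene the 3 ZC3H7B-OE libraries lie below the 3 control libraries, as they do in 37 of all 143 members (25.9%) and in 33.5% of the genes not taken. The pooled gap is widest in TPD52 (55.7% against 79.5%) and smallest in HNRNPC (69.5% against 74.3%).

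All reads, labelled or not, were compared between the lines over 2 h and 4 h. Of the 143 members 36 were higher and 26 lower in ZC3H7B-OE, where 9.39% and 15% of the tested entries were. The median log2 difference was 0.12 in the members and -0.11 in the genes not taken, of which 12.8% were higher and 31.1% lower. At 2 h alone 5 members were higher and 13 lower (3.50% and 9.09%). Of the tested entries 2.19% were higher and 7.27% lower, and of the genes not taken 3.75% and 18.7%. At 4 h alone 28 members were higher and 19 lower (19.6% and 13.3%). There 6.85% of the tested entries were higher and 10.8% lower, and 8.43% and 23.9% of the genes not taken. COLGALT1 was the most raised, at 443, 418 and 401 CPM in control and 720, 835 and 691 CPM in ZC3H7B-OE at 2 h, and at 273, 288 and 348 against 591, 545 and 563 CPM at 4 h. The lines did not overlap at either time, and the log2 difference was 0.87 (SE 0.09, adjusted p = 6.4e-09). BEX1, a small brain-expressed X-linked protein, was next (0.75, SE 0.16), then POP5 (0.67, SE 0.19), DNASE2 (0.66, SE 0.12), FAM213B (0.66, SE 0.14), SMIM10 (0.64, SE 0.16), TSPAN33 (0.61, SE 0.14) and PRELID1 (0.59, SE 0.14). Without ZC3H7B-OE 4 h replicate 2 the adjusted p of POP5 was 0.053.

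SYNJ2BP was the most lowered. It had 102, 105 and 88.8 CPM in control and 53.4, 41.2 and 64.6 CPM in ZC3H7B-OE at 2 h, and 67.2, 72.7 and 63.1 against 28.1, 21.8 and 20.8 CPM at 4 h (-1.21, SE 0.14, adjusted p = 4.3e-08). The lines did not overlap at either time. TPD52 (-1.19, SE 0.18), SRI (-1.13, SE 0.24), FECH (-1.07, SE 0.13), C8orf33 (-0.98, SE 0.09), CNTNAP2 (-0.91, SE 0.11), RWDD1 (-0.88, SE 0.13) and SPA17, a sperm surface protein (-0.84, SE 0.16), followed. Of the 9 members with lower labelled odds at 4 h, 7 were also lower in all reads, while HDGF was higher (0.29, SE 0.10) and HNRNPC did not pass. Of the 36 members with higher all reads 31 had the higher 6 h share in ZC3H7B-OE, and of the 26 with lower all reads 23 had the lower 6 h share. Of the 81 members not called in all reads, 57 also had the higher 6 h share in ZC3H7B-OE. The 4 h odds and the all reads have the 4 h libraries in common. The 6 h shares come from other libraries of the same lines, and those of control served the choice.

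Base composition went with the line differences inside the list. The 21 members with GC3 under 50% had a median share of 73.8% in control and 67.2% in ZC3H7B-OE at 4 h, and 15 of them were lower in ZC3H7B-OE at 6 h. The 83 members with GC3 of 65% or more had 77.9% and 77.7% at 4 h, and 68 of them were higher in ZC3H7B-OE at 6 h. Over 2 h and 4 h, all reads were higher in 0 and lower in 9 of the 21, and higher in 32 and lower in 7 of the 83. Of the tested entries of any GC3, 9.39% were higher and 15% lower, and of the genes not taken 12.8% and 31.1%. Calls were not counted by GC3 in the genes not taken. Across the 142 matched members, GC3 and the log2 difference of labelled odds at 4 h had a Spearman rho of 0.25 and a Pearson r of 0.31. Across the 2722 matched genes that met the minimums the values were 0.49 and 0.47, so the relation is not particular to the members. For all reads over 2 h and 4 h rho was 0.42 in the members and 0.50 in the larger set. With the GC of the 3′ UTR in place of GC3 it was 0.48 and 0.57, and with 3′ UTR length -0.41 and -0.33. These are descriptions across genes, which share libraries and are not independent, and GC3 itself went with the U content of the 3′ UTR (rho -0.67 in the members), so the 2 features cannot be told apart here.

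**Figure D5:**
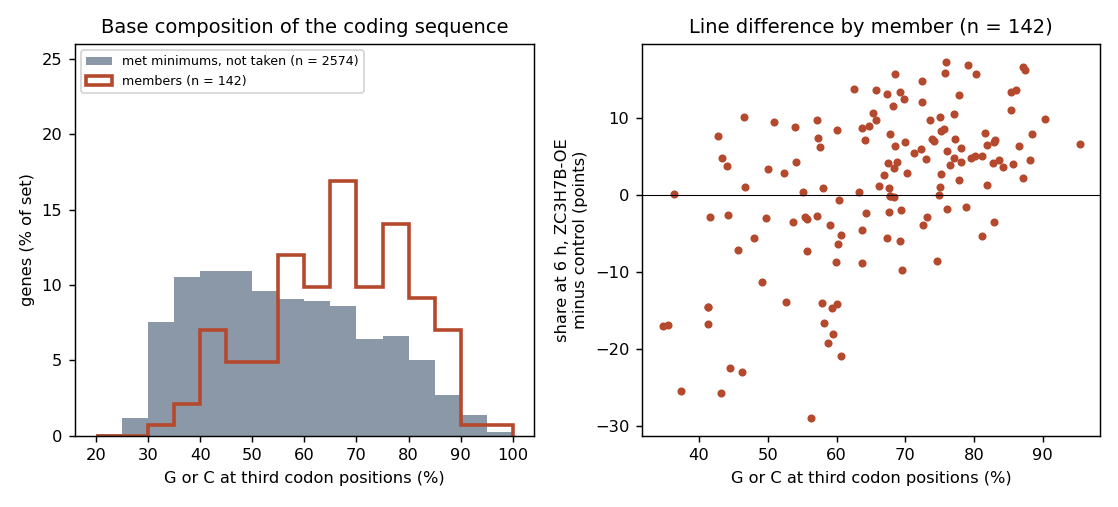
Left, share of genes (%) by GC3 in bins of 5 points for 142 members (outline) and 2574 genes not taken (filled); right, difference of the pooled 6 h share, ZC3H7B-OE minus control in percentage points, against GC3 for the members. The members' median GC3 is 67.8%, that of the other genes 54.5%; 68 of the 83 members with GC3 of 65% or more are above 0, and 15 of the 21 under 50% are below it.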

How the data were processed

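The authors deposited 2 tables of raw read counts per entry for 24 libraries, the first counting every read and the second only those carrying T-to-C conversions. Per the submitters' processing notes, fastp and genome build GRCh37 were used; no source used here names the aligner, the conversions required per read or how reads were assigned to genes. Columns were matched to libraries by the number in the labels' descriptions. Entries were filtered with edgeR's filterByExpr (minimum count 10), which kept 10038, all 143 members among them. edgeR 4.0.16 (R 4.3.3) fitted all reads with TMM scaling and 1 mean per group (glmQLFit, robust), and labelled with unlabelled reads with a term per library for the odds. Labelled and unlabelled reads alone used the sizes and TMM factors of all reads. Changes are relative to each library, not absolute. Benjamini-Hochberg adjustment was over all entries, with a threshold of 0.05. DESeq2 1.42.0 and limma 3.58.1 (logit, pseudocount 0.5) served as alternatives. Fits were tested on simulated data.

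The members, gene lists, markers and tests were chosen with earlier results of these data known. Named genes are the 12 with the highest control 6 h share, the 3 on each side of the limit, the 5 highest and 5 lowest 6 h shares in ZC3H7B-OE, up to 8 called members per direction in each of 3 tests, and the 3 with most reads in each functional group of 3 or more members; genes named otherwise were chosen after their values were seen, and 1 gene that the rule names is not reported here. Coding and UTR features come from GENCODE v29 (GRCh38), 1 transcript per gene, matched by gene identifier, and no coordinates are given because the builds differ. Same-numbered libraries did not pair: of 84 pairs between groups, 7 correlated above 0.1 (median -0.0043). Shares are of reads without molecular identifiers.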

Additional observations from a re-analysis of the deposited data

How the results depend on the processing

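Of the 143 members, 9 had lower labelled odds in ZC3H7B-OE at 4 h. There were 5 with odds relative to the whole library, 1 with limma on the logit, 17 in a fit of the 6 libraries of 4 h, 9 with the replicate block, and between 4 and 10 with 1 library left out. No member was higher, against 1 with odds relative to the whole library, 1 with no filter on low counts, 1 in the fit of 6 libraries, and 0 with the replicate block. All reads over 2 h and 4 h were higher in 36 members (5 at 2 h alone, 57 over all 4 times, 35 with the replicate block, 25 to 49 with 1 library left out) and lower in 26 (13 at 2 h alone, 26 with the replicate block, 21 to 32 with 1 library left out). Over the chase in ZC3H7B-OE all reads fell in 136 (135 with the replicate block) and rose in 0, or in 1 with DESeq2 size factors, with no filter on low counts, or without control 0 h replicate 3, so leaving out 1 library gave 0 to 1. Labelled odds fell in 121 members (120 with the replicate block), but in 1 with odds relative to the whole library: there the median over all entries was -1.08 in place of -3.81, and that of the members 1.47 in place of -1.34, since the labelled share of the whole library fell too. Labelled reads fell in 142 members with the replicate block, and unlabelled reads rose in 26 and fell in 37. The replicate numbers did not pair the libraries, and 5 of 24 libraries correlated best with their own number. Of 456 alternatives run on 32 results for single genes, 428 kept the call, 28 lost it and 0 changed direction. Depth limits the shares: 56 of 143 members had fewer than 400 pooled control reads at 6 h.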
